A study of Mus musculus with 24 samples.

Results

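The aryl hydrocarbon receptor (AhR) genes described here are 8 of the 47643 genes in the deposited count table, chosen by gene symbol for their role in the pathway. They are the receptor Ahr, its DNA-binding partner Arnt, the repressor Ahrr, the cytosolic chaperones Ptges3 and Hsp90ab1, and the target genes Tiparp, Cyp1a1 and Cyp1b1. All 8 were found. Plantaris, a fast hindlimb muscle, was profiled in wild type C57BL/6 mice that breathed normal air (11 samples) or were exposed to tobacco smoke for 16 weeks (13 samples). No purified receptor agonist, receptor mutant or AhR activity readout is among these samples. Age, sex and the time of day at collection were not given in the labels. The series title names chronic AhR activity and muscle, so the comparison asks whether receptor, chaperone and target transcripts differ after smoke.

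AhR is a ligand-activated transcription factor of the bHLH-PAS family. Without ligand it is held in the cytosol by HSP90 and the HSP90 co-chaperone p23 (encoded by Ptges3). Polycyclic hydrocarbons and other components of smoke bind it, and it then enters the nucleus, pairs with ARNT and binds short response elements. CYP1A1 and CYP1B1 are the hydroxylases it induces, and AHRR and the mono-ADP-ribosyltransferase TIPARP are induced by the receptor and restrain it.

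The response element has the core GCGTG, searched on either strand in the 250 bases upstream of the RefSeq start site. The core lay there at least once in 6 of 6 members with a RefSeq promoter window (GRCm38.p6). Ahr and Hsp90ab1 had no window in the set used. Of all 32851 RefSeq windows, 28.2% held the core, so a match is a common event. Tiparp, Cyp1a1, Cyp1b1 and Arnt had 1 core each, Ptges3 had 2 and Ahrr had 3. These bases end at the RefSeq start, which can differ from the GENCODE M21 gene ranges printed with the values below. Those of Cyp1a1 lie inside the longer GENCODE range of that gene and outside its exons. The Ptges3 core nearer the start (21 bases upstream of the RefSeq start) lies in a GENCODE exon. The guanine and cytosine content of these windows ran from 53.6% in Cyp1a1 to 75.2% in Tiparp, against a median of 52.4% over all windows. The longer motif TNGCGTG was present in 4.10% of all windows and, among the members, once, in Ahrr. A match is a description of letters and not a bound site. The well-studied response elements of Cyp1a1 lie further upstream than this window.

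The windows below show the cores of the induced genes on the gene's own strand, 5′ to 3′, with the core in capitals. Where the motif is on the opposite strand the capitals read CACGC.
Tiparp, chr3:65528257-65528301, gene on the plus strand: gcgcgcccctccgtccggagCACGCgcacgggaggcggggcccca
Cyp1a1, chr9:57697539-57697583, gene on the plus strand: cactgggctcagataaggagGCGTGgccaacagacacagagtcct
Cyp1b1, chr17:79715113-79715157, gene on the minus strand: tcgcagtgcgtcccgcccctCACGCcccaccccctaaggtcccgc
Ahrr, chr13:74292414-74292458, gene on the minus strand: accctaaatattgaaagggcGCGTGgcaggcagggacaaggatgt
Ahrr, chr13:74292389-74292433, gene on the minus strand: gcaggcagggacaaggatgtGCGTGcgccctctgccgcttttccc
Ahrr with the longer motif, chr13:74292334-74292378, gene on the minus strand: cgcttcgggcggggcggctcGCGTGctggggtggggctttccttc

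**Figure D1:**
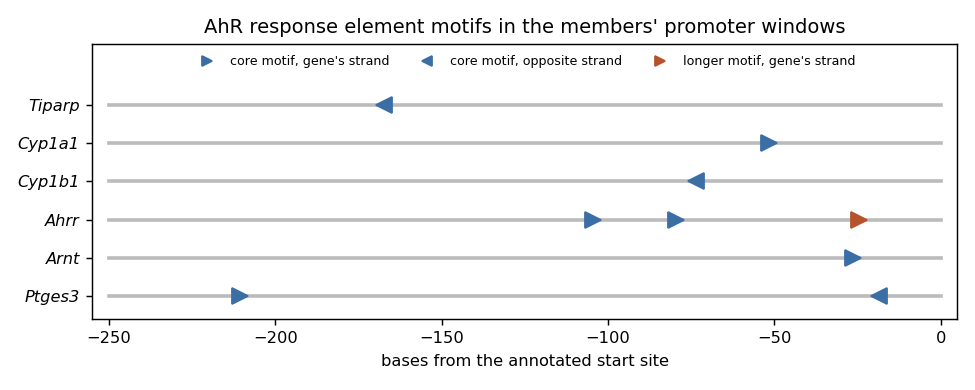
Position of the AhR core motif in the 250 bases upstream of the RefSeq start site (x axis, bases from the start) of the 6 members with a RefSeq window. Each arrowhead is 1 match pointing along its strand, and Ahrr, with 3 matches, holds the single match to the longer motif.

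Libraries were made by 3′-end sequencing, in which a transcript gives reads near its poly(A) tail. Total counts ran from 2868808 to 4060568 in air and from 2515697 to 4528845 in smoke. A floor of 3 counts equals 0.665 to 1.15 CPM (the usual depth-scaled read count, here on library totals scaled by the trimmed mean of M values, TMM). Such intervals and floors cover counting error only. Nothing in the labels says which samples share a litter or cage, so p-values measure the spread between these samples. Myofibre markers were abundant in every sample, with 8 genes summing to 116050 to 179220 CPM in air and 122940 to 152750 CPM in smoke. Of these 8, 0 were called (edgeR adjusted p under 0.05), against 195 of all 10159 tested genes (1.92%). Schwann cell markers (7 genes, 162.9 to 373 CPM in air and 237.96 to 947 CPM in smoke) held 3 genes called higher of 6 tested. Blood markers (5 genes, 486 to 1444 CPM in air and 369 to 883 CPM in smoke) held 3 called lower of 5 tested. Both of these counts stand beside the same 1.92% of all tested genes. Endothelium, fibroblast, macrophage and T cell, adipocyte, pericyte and smooth muscle, and satellite cell marker lists each held 0 called. In whole muscle, fewer cells of a type and less RNA per cell cannot be told apart.

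Among the 8 members, 5 passed the expression filter (Ahr, Arnt, Ptges3, Hsp90ab1 and Tiparp), and 0 of these 5 were called between smoke and air (edgeR quasi-likelihood test, Benjamini-Hochberg adjusted p under 0.05). Over all 10159 genes tested, 195 were called (1.92%). At an unadjusted p under 0.05 there was 1 member, Tiparp, against 15.5% of all tested genes. DESeq2 and limma voom also called 0 members. The groups overlapped in CPM for every tested member; over all tested genes 0.0295% did not overlap. Median log2 fold change over all tested genes was 0.0066, and the median size of a change was 0.11.

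**Figure D2:**
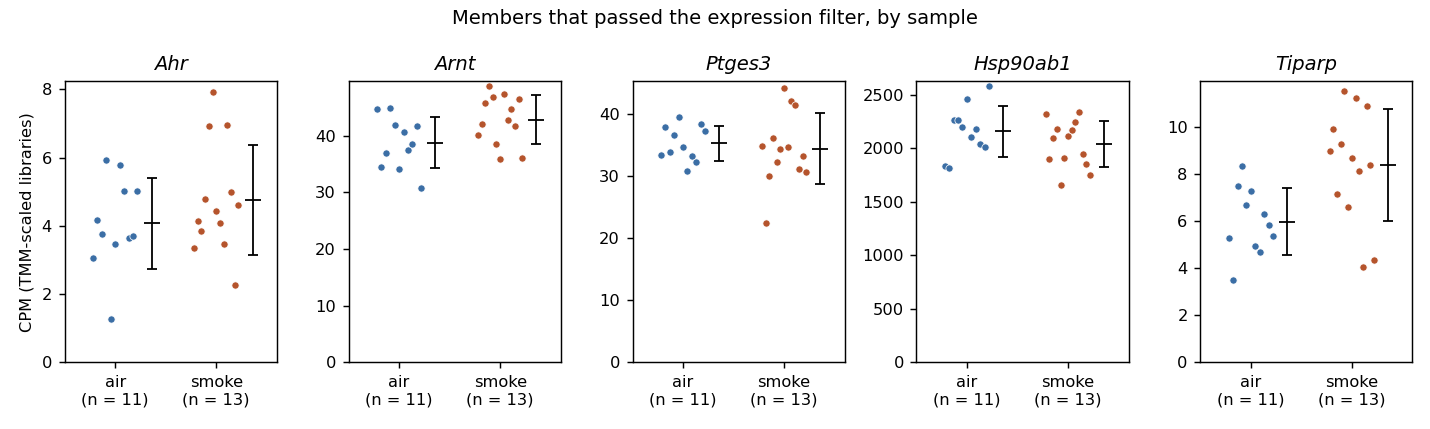
CPM (y axis, from 0, a separate scale per panel) of the 5 members that passed the filter, 1 point per sample, with the mean and SD beside each group of 11 air and 13 smoke samples. The groups overlap in each panel, and the widest gap in means relative to the spread is that of Tiparp (5.97 against 8.38 CPM).

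Ahr, the receptor itself (ENSMUSG00000019256; chromosome 12, 35497974 to 35535038, minus strand in GRCm38), was a weakly counted gene in plantaris. In air its lowest, median and highest values were 1.29, 3.75 and 5.92 CPM. In smoke they were 2.26, 4.44 and 7.92 CPM. The lowest value overall was an air sample (replicate 5) and the highest a smoke sample (replicate 6), and 9 of 13 smoke samples lay above the air mean. The means were 4.08 ± 1.33 CPM (SD, n = 11) and 4.75 ± 1.61 CPM (SD, n = 13), a log2 fold change of 0.21 (SE 0.20, 95% interval −0.20 to 0.61, edgeR adjusted p = 0.688). With 5 to 22 reads per air sample and 7 to 24 per smoke sample, counting error alone equalled 67.0% of the variance among air samples and 56.4% among smoke samples. As a fold, the interval runs from 0.870 to 1.53. An annotated non-coding gene, Gm48236, overlaps exons of Ahr on the opposite strand but is not among the genes of the count table. Whether strand was used in counting is not given in the sources used here.

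Arnt, the obligate partner that AhR shares with the hypoxia factors (ENSMUSG00000015522; chromosome 3, 95434388 to 95497240, plus strand), was measured more precisely. In air its lowest, median and highest values were 30.9, 38.6 and 45.0 CPM. In smoke they were 35.9, 42.9 and 48.8 CPM. In 10 of 13 smoke samples Arnt lay above the air mean, 5 smoke samples exceeded the highest air sample, and 3 air samples lay under the lowest smoke sample. From 38.8 ± 4.502 CPM (SD, n = 11) in air to 42.9 ± 4.26 CPM (SD, n = 13) in smoke, the log2 fold change was 0.14 (SE 0.071, 95% interval −0.0053 to 0.28, edgeR adjusted p = 0.346). Its unadjusted p was 0.0586, and as a fold the interval runs from 0.996 to 1.22.

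Ptges3, which encodes p23 and stabilises HSP90 on its clients (ENSMUSG00000071072; chromosome 10, 128058954 to 128077272, plus strand), had nearly equal means. In air its lowest, median and highest values were 30.8, 34.6 and 39.4 CPM. In smoke they were 22.3, 34.3 and 44.1 CPM. Smoke samples lay on both sides of the air range, 3 above it and 3 below it. The means were 35.2 ± 2.79 CPM (SD, n = 11) and 34.4 ± 5.76 CPM (SD, n = 13), a log2 fold change of −0.030 (SE 0.082, 95% interval −0.20 to 0.14, edgeR adjusted p = 0.912). Its coefficient of variation was 7.92% in air and 16.8% in smoke, a difference in spread for which no test was run. Counting error equalled 131% of the variance in air and 30.7% in smoke, so the air spread was no wider than counting error alone.

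Hsp90ab1, the constitutive cytosolic HSP90 beta (ENSMUSG00000023944; chromosome 17, 45567775 to 45573271, minus strand), had 4309 to 9676 reads in every sample. In air its lowest, median and highest values were 1816, 2177 and 2582 CPM. In smoke they were 1656, 2100 and 2337 CPM. The 2 highest samples of all were air samples and the 2 lowest were smoke samples, with the rest intermixed. From 2159 ± 236.5 CPM (SD, n = 11) to 2038 ± 217 CPM (SD, n = 13), the log2 fold change was −0.084 (SE 0.061, 95% interval −0.21 to 0.040, edgeR adjusted p = 0.557). Counting error equalled only 1.12% of the variance in air and 1.29% in smoke. A clock gene index and the blood marker score both differed between the groups (correlation with smoke 0.72 and −0.56). With the clock index as a covariate Hsp90ab1 was at −0.19 (edgeR unadjusted p = 0.0346, adjusted p = 0.308), and with the blood score at −0.15 (edgeR unadjusted p = 0.0444, adjusted p = 0.393). It was nearer to 0 with the Schwann cell score, at −0.065 (edgeR unadjusted p = 0.387). With the replicate number as a block it was also nearer to 0, at −0.055 (edgeR unadjusted p = 0.442). That fit left out smoke replicates 12 and 13 (1854 and 1755 CPM), which have no same-numbered air sample.

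Tiparp, the AhR-induced enzyme that ADP-ribosylates and restrains the receptor (ENSMUSG00000034640; chromosome 3, 65528410 to 65555518, plus strand), had the largest log2 fold change of the 5 tested members. In air its lowest, median and highest values were 3.48, 5.84 and 8.35 CPM. In smoke they were 4.03, 8.65 and 11.5 CPM. Of the 13 smoke samples, 8 exceeded the highest air sample and 11 exceeded the air mean, while smoke replicates 10 and 13, at 4.03 and 4.33 CPM, lay at the low end of the air range. The means were 5.97 ± 1.42 CPM (SD, n = 11) and 8.38 ± 2.37 CPM (SD, n = 13), a log2 fold change of 0.48 (SE 0.16, 95% interval 0.15 to 0.80). Its unadjusted p of 0.00518 ranked 459th of 10159 genes, and edgeR's adjusted p of 0.114 did not pass. Across 12 other settings the adjusted p ran from 0.0910 to 0.369, and over the 24 fits that each left out 1 sample it ran from 0.0509 to 0.176.

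The reads behind Tiparp were few, 10 to 31 per air sample and 11 to 44 per smoke sample. Counting error equalled 84.9% of the variance among air samples and 44.3% of that among smoke samples. The annotated pseudogene 4931440P22Rik overlaps Tiparp exons on the opposite strand and had 21 reads over all air samples and 29 over all smoke samples, with at most 8 in a sample.

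**Figure D3:**
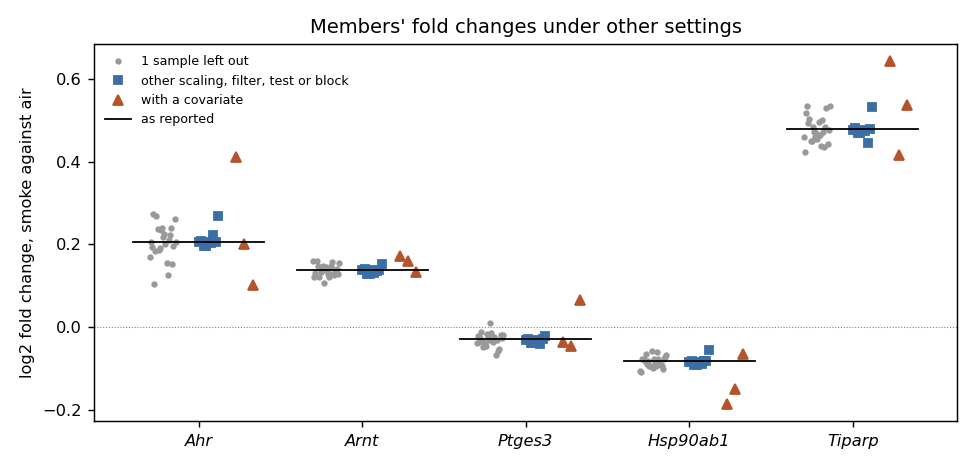
Log2 fold change of smoke against air (y axis) for the 5 tested members as reported (line) and under other settings: grey points leave out 1 sample each, blue squares change scaling, filter, test or add the replicate block, and red triangles add a covariate. Tiparp stays between 0.42 and 0.64, while Ptges3 lies on both sides of 0.

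Cyp1a1, the classical AhR-induced hydroxylase (ENSMUSG00000032315; chromosome 9, 57687928 to 57703824, plus strand), was close to undetected in plantaris of both groups. In air 6 of 11 samples had exactly 1 read and the rest had 0. In smoke 5 of 13 samples had reads, 4 in replicate 7, 3 in replicate 9, 2 in replicate 1 and 1 in each of replicates 4 and 13. Fewer smoke than air samples thus had any read, although the sum was higher, 11 reads (exact 95% Poisson interval 5.49 to 19.7) against 6 (2.20 to 13.1). Scaled to library size, the ratio of smoke to air was 1.59 with a counting interval of 0.539 to 5.24. The mean difference of 0.0606 CPM did not pass a two-sided permutation test with 100000 resamples (p = 0.558, adjusted p = 0.558 over 3 members). It was 0.0044 CPM without smoke replicate 7, 0.020 CPM without smoke replicate 9 and 0.032 CPM without smoke replicate 1. Smoke replicates 7 and 9, with the most Cyp1a1 reads, had 8.65 and 8.11 CPM of Tiparp, inside the range of the other smoke samples.

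Cyp1b1, the AhR-induced hydroxylase of stromal and vascular cells (ENSMUSG00000024087; chromosome 17, 79701537 to 79715061, minus strand), was also under the filter but had at least 1 read in 10 of 11 air and 12 of 13 smoke samples. Counts per sample ran from 0 to 6 in both groups, with a median of 1 in air and 2 in smoke. The sums were 21 reads in air (exact 95% Poisson interval 12.999 to 32.1) and 31 in smoke (21.1 to 44.0), a scaled ratio of 1.28 with a counting interval of 0.713 to 2.34. The difference of 0.164 CPM did not pass (permutation p = 0.373, adjusted p = 0.558). It was 0.277 CPM without air replicate 1 and 0.107 CPM without smoke replicate 9. With the replicate number as a block, which left out smoke replicates 12 and 13, it was 0.0955 CPM. The single highest values, 1.67 and 1.39 CPM, came from air replicate 1 and smoke replicate 9.

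Ahrr, the repressor that competes with AhR for ARNT (ENSMUSG00000021575; chromosome 13, 74211118 to 74292331, minus strand), had reads in 2 of 11 air samples and 5 of 13 smoke samples. The sums were 4 and 8 reads (exact 95% Poisson intervals 1.09 to 10.2 and 3.45 to 15.8), and no sample had more than 3. The scaled ratio was 1.74 with a counting interval of 0.465 to 7.87, and the difference of 0.0838 CPM did not pass (permutation p = 0.438, adjusted p = 0.558). It was 0.153 CPM without air replicate 10, 0.031 CPM without smoke replicate 3 and 0.050 CPM without smoke replicate 11. For these 3 induced genes the point estimates lay above 1, but each interval includes both a fall and a rise, and for Cyp1a1 and Ahrr the upper bound still allows a several-fold increase at this depth.

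**Figure D4:**
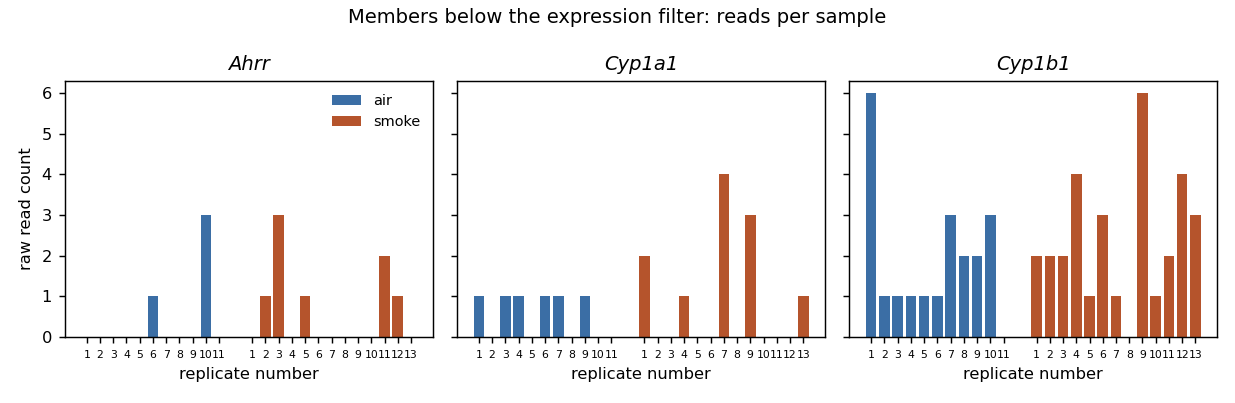
Raw read counts per sample (y axis) of the 3 members below the expression filter, with replicate numbers on the x axis and air (blue) before smoke (red). No sample exceeds 6 reads, and most samples have 0 reads of Ahrr.

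Other genes of the receptor complex were taken from a fixed list of 15, which includes chaperones, coactivators and ubiquitin ligase parts, and 14 were tested. None of the 14 was called higher or lower by edgeR, against 1.92% of all tested genes, and 2 were at an unadjusted p under 0.05, against 15.5%, a share near the background. Of the 14, 7 had positive and 7 negative log2 fold changes, and their median was 0.0054. Among the genes at an unadjusted p under 0.05 was Hsp90aa1, the inducible HSP90 alpha, with 43.4 ± 7.26 CPM (SD, n = 11) in air and 36.5 ± 6.71 CPM (SD, n = 13) in smoke (log2 fold change −0.25, edgeR adjusted p = 0.178). Coactivators that dock on the receptor, Ncoa1, Ncoa2 and Ncoa3, had log2 fold changes of 0.056, 0.0998 and 0.073, with adjusted p-values from edgeR of 0.855, 0.714 and 0.846.

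Of 15 further AhR target genes, 5 passed the filter, 0 were called higher and 1 was called lower, against 1.92% of all tested genes called in either direction (121 of 10159 lower). That gene was Nqo1, a quinone reductase that is also a target of NRF2, with −0.44 on the log2 scale (SE 0.0998, adjusted p = 0.0140 by edgeR). Its smoke samples ran from 10.4 to 16.2 CPM and its air samples from 14.0 to 26.5 CPM, with 0 of 13 smoke samples above the air mean. The value stayed between −0.48 and −0.38 in every other setting, but the call was not always kept. With the replicate number as a block, which left out smoke replicates 12 and 13, edgeR's adjusted p was 0.0504. By edgeR it was 0.207 with the clock index, 0.0587 with the blood score and 0.111 with the Schwann cell score. The other 4, Nfe2l2, Slc7a5, Xdh and Cdkn1b, had log2 fold changes of −0.15 to 0.14 and did not pass. Ugt1a6b and Il22 had 0 reads in every sample.

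The chaperone machinery around Hsp90ab1 was taken from a fixed list of 21 HSP90 co-chaperones and HSP70 partners, 20 of them tested. In this list 0 genes were called higher and 1 was called lower, against 1.92% of all tested genes called. Of the 20, 6 were at an unadjusted p under 0.05 against 15.5% of all tested genes, and 16 had negative log2 fold changes, with a median of −0.066 against 0.0066 over all tested genes. Hspa1a, the stress-inducible HSP70, fell with −1.02 on the log2 scale (SE 0.23, adjusted p = 0.0142 by edgeR), from 16.6 ± 8.23 CPM (SD, n = 11) in air to 8.26 ± 4.27 CPM (SD, n = 13) in smoke. Its groups overlapped, at 7.30 to 29.6 CPM in air and 3.29 to 19.4 CPM in smoke, and 1 of 13 smoke samples lay above the air mean. The call was lost with the clock index (−1.11, edgeR adjusted p = 0.114) and with the Schwann cell score (−1.10, edgeR adjusted p = 0.0622). Neither estimate was nearer to 0 than −1.02, and both covariates differed between the groups (correlation with smoke 0.72 and 0.58). Hspa1a is a near-identical copy of Hspa1b, which was under the filter with 150 reads in air and 89 in smoke, so the split of reads between them is uncertain. Ahsa1, which stimulates the HSP90 ATPase, was at −0.22 (edgeR adjusted p = 0.116), and Fkbp5, a glucocorticoid-induced HSP90 co-chaperone, was at 0.40 (edgeR adjusted p = 0.114).

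**Figure D5:**
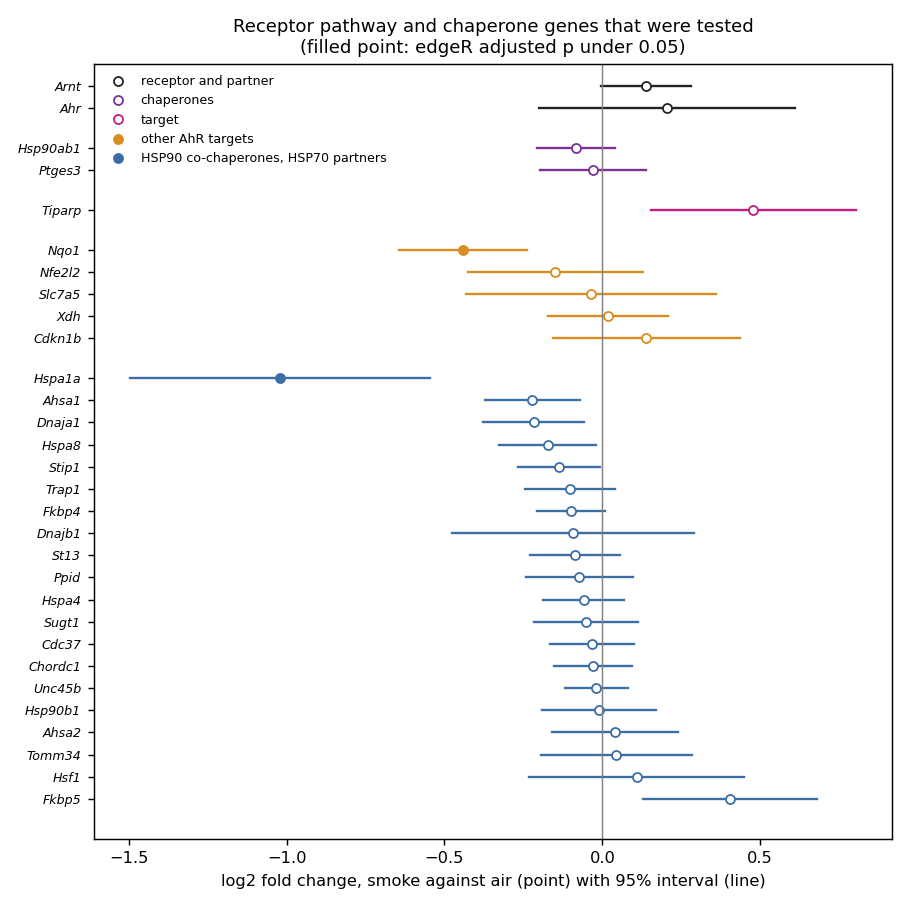
Log2 fold change of smoke against air (point) with its 95% interval (line) for each tested member and each tested gene of 2 related lists, further AhR targets and HSP90 co-chaperones with HSP70 partners; filled points passed edgeR's adjusted p under 0.05. Nqo1 and Hspa1a, both lower under smoke, are the filled points, and the 5 members are open.

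The list of bHLH-PAS relatives of AhR and ARNT shares genes with the receptor complex list, among them Ncoa1, Ncoa2 and Ncoa3. Of these relatives, 19 genes were in the table and 12 were tested. Of these, 1 was called higher, the clock repressor Per3, with 0.45 on the log2 scale (SE 0.11, adjusted p = 0.0172 by edgeR), and 0 were called lower, against 1.92% of all tested genes called. Per3 was at 0.20 with the clock index, which includes it (edgeR adjusted p = 0.548), at 0.42 with the blood score (edgeR adjusted p = 0.134) and at 0.37 with the Schwann cell score (edgeR adjusted p = 0.185). The oxygen-sensing partners of ARNT, Hif1a and Epas1, were at −0.14 and −0.068, with adjusted p-values from edgeR of 0.693 and 0.704. Of 11 genes of the PARP family, to which TIPARP belongs, 9 were tested. By edgeR 0 were called, against 1.92% of all tested genes, and the median log2 fold change was 0.086. At an unadjusted p under 0.05 there was 1, Parp16 (0.44, edgeR adjusted p = 0.196), against 15.5% of all tested genes.

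Within groups, no relation between the receptor and its partner or target passed a permutation test. Over 11 air samples, Ahr with Tiparp had a Pearson's r of −0.18 at a permutation p of 0.587. Spearman's rho was −0.15 at a permutation p of 0.675. Over 13 smoke samples r was −0.24 at a permutation p of 0.422, and rho was −0.077 at a permutation p of 0.807. Without the 2 samples farthest from the Ahr median, r was −0.43 in air and −0.21 in smoke. Both genes carry the counting error given above. Ahr with Arnt gave r −0.20 in air (permutation p = 0.572; rho −0.11, permutation p = 0.755; r −0.32 without 2 samples). In smoke it gave r −0.13 (permutation p = 0.684; rho −0.11, permutation p = 0.723), which turned to 0.25 without 2 samples.

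The chaperones Hsp90ab1 and Ptges3 gave the strongest of these 6 relations, in smoke, with a Pearson's r of 0.53 at a permutation p of 0.0591. The rank correlation was 0.70 at a permutation p of 0.00960. Leaving out the 2 samples whose Hsp90ab1 was most extreme gave a Pearson's r of 0.59. In air r was 0.083 at a permutation p of 0.806, rho was 0.073 at a permutation p of 0.839, and r without 2 samples was 0.23. Adjusted over 6 relations, the lowest p was 0.355 for r and 0.0576 for rho, so none passed. The difference between the groups was not tested.

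By a fixed rule, the 3 tested genes with the highest Pearson r to each tested member were listed, after each group's mean was subtracted, over 24 samples that share libraries and depth. Nearest to Ahr were Rbm4b (r 0.76), Igfn1 (0.74) and Gm14843 (0.73). Those nearest to Arnt were Cpsf6 (0.79), Gm43321 (0.76) and Grb14 (0.75). Tiparp was most like Slc25a16, 4931414P19Rik and Dmxl1, each at 0.70. For Ptges3 they were Serpinb6a (0.73), Mrpl35 (0.73) and R3hcc1 (0.71). In the same order, r was 0.44, 0.18 and 0.62 within air and 0.86, 0.84 and 0.78 within smoke. Among the genes most like Hsp90ab1 were Eif2s2 (0.84) and Myom1 (0.80). No member was among another member's nearest genes, and the highest r between 2 members was 0.38, for Ptges3 with Hsp90ab1. Each is the largest value of a search over all tested genes and is a description only.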

How the data were processed

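The deposited table holds unnormalised read counts for each Ensembl gene ID in 1 column per sample, made from 3′-end libraries (Lexogen QuantSeq forward, per the labels' protocols) read on a single lane, per the file headers. The submitters' processing notes name STAR, DESeq2 and mm9, with no role or version. The counting tool, the annotation and any use of strand or molecular identifiers are not given in the sources used here, so PCR copies may be counted. Symbols and coordinates came from GENCODE M21 (GRCm38), which holds 47224 of 47643 IDs (99.1%). The table itself has no coordinates, and none were converted. Promoter windows came from RefSeq.

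Genes passing filterByExpr (minimum count 10) were scaled by TMM and tested on all 24 samples without covariates by edgeR 4.0.16 (R 4.3.3), quasi-likelihood F-test, with Benjamini-Hochberg adjustment over all 10159. CPM for every member used the same scaled totals. Members under the filter were compared by permutation of CPM, with exact Poisson and conditional binomial counting intervals at 95%. Correlations used log2 CPM (prior count 2). The fit and the permutation test were tested on simulated data. Alternatives used DESeq2 1.42.0 and limma 3.58.1, among others. The clock index combined 8 clock genes against 3 others, and the blood and Schwann cell scores were mean log2 CPM of 5 and 6 markers. Within the clock index, 3 of the 8 were themselves called higher in smoke and 1 of the 3 lower. No pair of samples within a group agreed within sampling noise (133 pairs, chi-square per gene 2.51 to 18.7), so none were merged.

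Members, lists and covariates were chosen with earlier results of these data known. Named were the members, called genes of the related lists and the 3 genes most like each tested member. Some genes these rules would name are not reported here. Hsp90aa1, Ncoa1, Ncoa2, Ncoa3, Nfe2l2, Slc7a5, Xdh, Cdkn1b, Hspa1b, Ahsa1, Fkbp5, Hif1a, Epas1, Parp16, Ugt1a6b and Il22 were named after their values were seen.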

Additional observations from a re-analysis of the deposited data

How the results depend on the processing

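Under all 12 other settings and all 24 fits without 1 sample, 0 members were called, and Ahr, Arnt, Hsp90ab1 and Tiparp kept their sign. Ptges3 turned to 0.064 with a Schwann cell score as covariate (added after the data were seen). Without 1 sample its log2 fold change ran from −0.069 to 0.0093, turning only without smoke replicate 2. Ahr went from 0.21 to 0.41 with the clock index and to 0.10 with the Schwann cell score, and ran from 0.10 to 0.27 without 1 sample. The clock index, blood and Schwann cell scores correlate with the group at r 0.72, −0.56 and 0.58.

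Over all genes, 195 calls became 318 with DESeq2, 413 at an adjusted p under 0.10, 39 with the clock index, 56 with the blood score and 70 with the Schwann cell score. Without 1 sample they ran from 141 to 254. The causes were not tested. Nqo1, Hspa1a and Per3 kept their sign and were called in every fit without 1 sample.

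For Cyp1a1 the share of samples with a read was lower in smoke (difference −0.161, Fisher's exact p = 0.682), opposite in sign to the difference in CPM. Cyp1b1 and Ahrr kept their sign throughout. The correlation of Ahr with Arnt in smoke turned to 0.25 without 2 samples.

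Replicate numbers 1 to 11 occur in both groups but share only a number. Deviations correlated at a mean r of −0.0059 over 11 same-numbered pairs and 0.0011 over 132 others. With the replicate number as a block, 138 genes and 0 members were called, and Tiparp was at 0.53 (edgeR adjusted p = 0.119). This fit left out smoke replicates 12 and 13, so its samples differ from the main fit as well. Without smoke replicate 13 alone and with no block, Tiparp was also at 0.53.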
